A study of Chlorocebus aethiops vervet with 14 samples.

Results

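Whole magnocellular (M) layers were compared with whole parvocellular (P) layers of the lateral geniculate nucleus of the vervet monkey. The 6 arrays compared, of 14 in the series, are those titled as magnocellular layer 1 to 3 and parvocellular layer 1 to 3 on the Rhesus Macaque Genome Array, and an M array was paired with the P array of the same number. The animals were normal adult males, with 3 individual animals behind each group, and the labels do not say whether 1 animal gave both layer types. The laser capture took each layer as the mixture it is, with neuronal cell bodies, neuropil and glia, in sections stained with cresyl violet. The RNA was amplified in more than one round before hybridization. The other rhesus arrays, 3 of M neurons and 3 of P neurons, hold neuronal cell bodies captured from the same layer types and serve here for the shared error and as a second readout. A pair of human arrays was not used here. Because vervet RNA met probes made for rhesus, probe sets can read low in all groups where the species differ in sequence, and levels of different probe sets are not set against each other.

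The lateral geniculate nucleus relays signals from the retina to the visual cortex. Its M layers hold large relay cells that respond fast and to low contrast and motion, and its P layers hold smaller relay cells that carry colour and fine detail. A whole layer also holds inhibitory interneurons, astrocytes, oligodendrocytes, microglia, vessels, retinal and cortical terminals, and the dendrites and axons of the relay cells. In such a mixture, fewer cells of a type and less RNA per cell cannot be told apart.

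All values below are linear MAS5 signals, with 3 arrays in each group. Over the layer arrays the median signal ran from 12.0 to 14.6 in M layers and from 12.8 to 14.2 in P layers, and the mean correlation of an array with the others of its group lay between 0.971 and 0.979. The ratio of 3′ to 5′ control probe sets, a sign of RNA quality and amplification, was 14.97, 21.9 and 18.2 for EF1a in M layers and 13.4, 13.3 and 13.1 in P layers, so it was higher in every M array. For GAPDH the same ratio overlapped, at 23.4 to 29.4 in M layers and 26.4 to 28.2 in P layers. Instrument records put M layers 1 and 2 on fluidics station 4 and M layer 3 and all P layers on station 5. The part of RNA quality and of the station in the differences below was not tested beyond the values given with them. The thalamic transcription factor TCF7L2 was bright in all 6 layer arrays, at 3489 to 3811 in M layers and 4730 to 5547 in P layers, as was the glial gene MBP at 5731 to 5942 in M layers and 5789 to 6880 in P layers.

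Between M and P layers 89 of 26383 probe sets were called at an adjusted p under 0.05 (0.337%), 53 of them higher in M layers (0.201%) and 36 lower (0.136%). The share of calls that was higher was 59.6% here, 44.7% of 264 calls with the arrays scaled to one trimmed mean and 44.0% of 307 calls after quantile normalization, with all 89 probe sets among the calls in both. The model was limma on log2(signal + 16) with the title number as a block. Without the block 42 probe sets were called (0.159%), all of them among the 89. Of the 89, 51 carried 1 gene symbol and 38 carried none. All 89 differed in the same direction in each of the 3 numbered pairs. The calls were made on these same pairs, so this follows largely from the selection and is no separate support.

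Taking the brightest probe set of each gene left 9349 named genes, with a median difference of 0.06 on the log2 scale between M and P layers. Of these 35 were called (0.374%), 15 higher in M layers (0.16%) and 20 lower (0.214%). Without the block 13 were called (0.139%). At an unadjusted p under 0.05, 487 genes were higher (5.21%) and 206 lower (2.2%). The 3 M arrays all lay above the 3 P arrays in 885 genes (9.47%) and all below them in 322 (3.44%), together 12.9%. These counts come from arrays that were not scaled to each other. The median difference over all probe sets was 0.0514, against 0.00159 after quantile normalization and -0.0127 with the arrays scaled to one trimmed mean. The 13 genes called without the block were SLC12A1, ITGA8, TLL1, ITPR1, PBXIP1, CGNL1 and CHN1, higher in M layers, and BHLHE22, FABP4, STIMATE, PCDH20, REC8 and CNTNAP4, lower. The other 22 were called only with the block, and their p without it is given where a gene is described. Leaving out any 1 of the 12 arrays kept the call of 13 genes, BHLHE22, CNTNAP4, FABP4, GFAP, ITGA8, ITPR1, MDFIC, PCDH20, PHLDA2, REC8, SLC12A1, STIMATE and TLL1. Within station 5, where M layer 3 stood alone against 3 P layers and was taken to vary like the other groups, 28 probe sets were called and 11 of the 35 genes kept their call, all 35 in the same direction. These 11 were BHLHE22, CARTPT, CEP126, CNTNAP4, FABP4, ITGA8, PCDH20, SLC12A1, STIMATE, TLL1 and TSPAN33. With the station as block in place of the number 6 kept it, BHLHE22, ITGA8, SLC12A1, STIMATE, TLL1 and TSPAN33, and with number and station 10 did, the 11 without CNTNAP4.

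**Figure D1:**
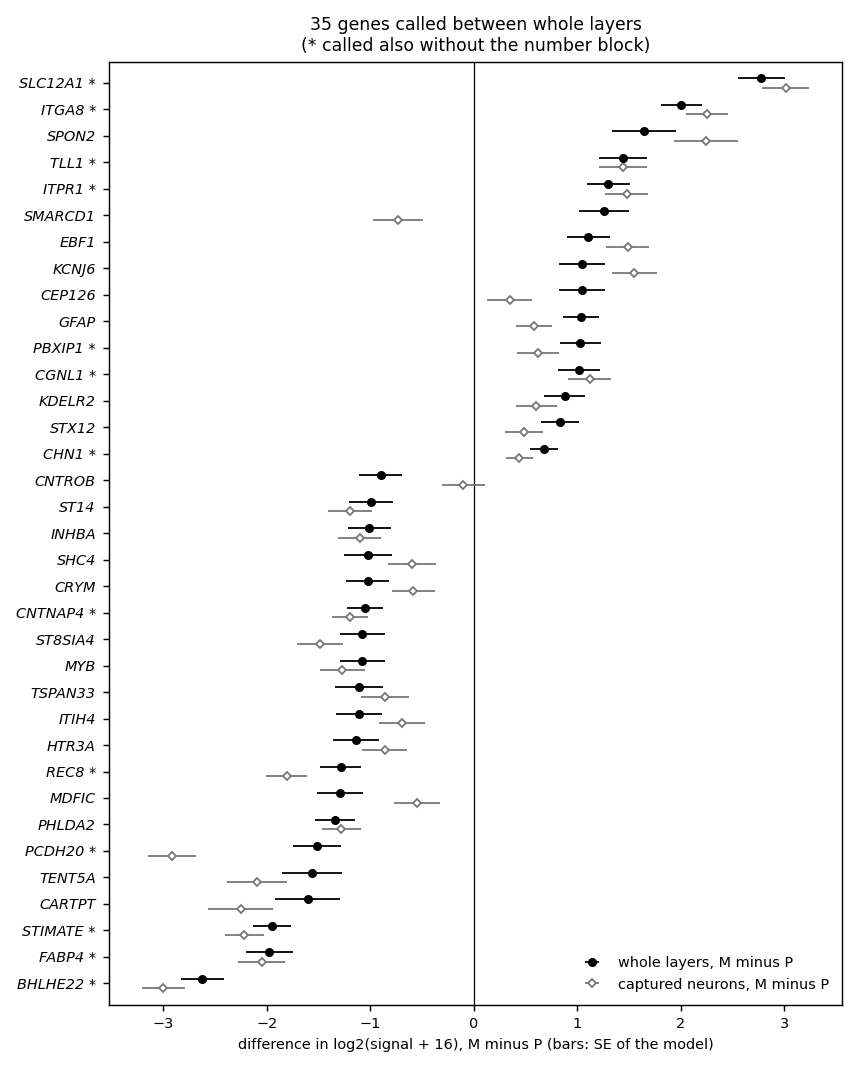
Difference between M and P on the log2(signal + 16) scale for the 35 genes called between whole layers, M minus P, with filled points for whole layers and open diamonds for captured neurons; bars are the model's standard errors (3 arrays in each group) and an asterisk marks the 13 genes called also without the number block. The differences run from 2.78 for SLC12A1 to -2.62 for BHLHE22, and SMARCD1 has its 2 points on opposite sides of 0.

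SLC12A1, the named gene with the largest difference toward M layers, is a sodium, potassium and chloride cotransporter best known from the kidney. It had a signal of 227, 595 and 454 in M layers, against 41.1, 54.9 and 37.5 in P layers. Every M array lay well above every P array, and M layer 1 was the lowest of the M arrays. The difference was 2.78 ± 0.23 (SE), or 6.86-fold, with an adjusted p of 6.73e-09 and of 0.000263 without the block. The pairs gave 2.09, 3.11 and 3.14. It was the 1 called gene of 15 tested cotransporter and sodium pump genes, whose median difference was 0.12. The neuronal chloride exporter SLC12A5 had 1421, 1818 and 1155 in M layers and 1167, 1449 and 931 in P layers, which overlapped.

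Of 16 tested genes of calcium stores and pumps, 1 rose and 1 fell, with a median of 0.02. ITPR1, the inositol trisphosphate receptor that releases calcium from the endoplasmic reticulum, had 205, 289 and 336 in M layers, against 99.3, 96.4 and 107 in P layers. The P arrays were nearly level, and all M arrays lay above them. The difference was 1.30 ± 0.21, or 2.46-fold (adjusted p 0.000861, 0.0354 without the block). The call was lost with the station as block (0.329), with number and station (0.479) and within station 5 (0.251). The other 3 probe sets of ITPR1 also lay above 0, at 0.64 to 0.84, and were not called. STIMATE, a membrane protein of the endoplasmic reticulum that promotes the calcium sensor STIM1, ran the other way. It had 78.4, 146 and 65.4 in M layers, against 329, 653 and 296 in P layers. In both layer types the array numbered 2 was the highest, and the 3 pairs gave -1.87, -2.04 and -1.94. The difference was -1.95 ± 0.19 (adjusted p 1.52e-07, 0.00719 without the block), so the signal was 3.87-fold higher in P layers. The plasma membrane calcium pump ATP2B1, with 838, 915 and 866 in M layers and 1063, 1577 and 1014 in P layers, had a difference of -0.45 ± 0.17 that was not called (adjusted p 0.506). It was called after quantile normalization (-0.53, adjusted p 0.013) and after scaling to one trimmed mean (-0.53, 0.0222), and its other 2 probe sets gave -0.32 and -0.44.

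Among 31 tested potassium channel genes 1 was called, and 21 lay above 0 with a median of 0.20. KCNJ6, a G-protein-gated inward rectifier, had 75.5, 129 and 182 in M layers, against 49.8, 49.2 and 53.6 in P layers. The groups did not overlap, but M layer 1 lay much nearer to the P arrays than the other M arrays did. The difference was 1.05 ± 0.22 (adjusted p 0.0192). The call was lost without the block (0.258) and when M layer 2, M layer 3, P layer 2 or P layer 3 was left out (0.103 to 0.225). The calcium-activated channel KCNN2 had 183, 130 and 112 in M layers and 93.0, 61.3 and 74.8 in P layers, a difference of 0.76 ± 0.20 that was not called (adjusted p 0.118). KCNA1, an axonal voltage-gated channel, had 810, 598 and 1104 in M layers and 591, 526 and 559 in P layers (0.53 ± 0.17, adjusted p 0.306). Among 15 sodium, calcium and HCN channel genes none was called by limma with the block or without it. At an unadjusted p under 0.05, 1 of these was higher and 1 lower, and their median was 0.11.

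**Figure D2:**
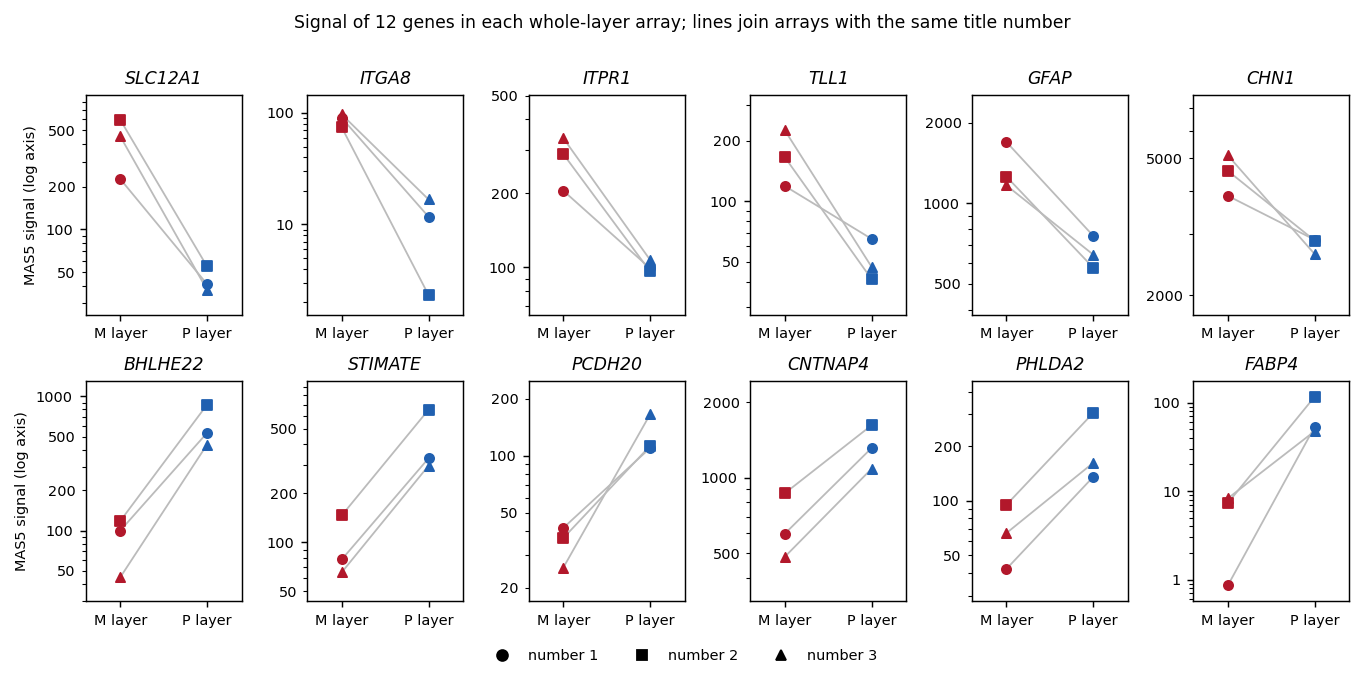
MAS5 signal (log axis) of 12 called genes in each whole-layer array, M layers left and P layers right in every panel, with lines joining arrays of the same title number (circles 1, squares 2, triangles 3). In these 12 genes the 3 arrays of one layer type all lie on one side of the other type, as for SLC12A1 with 227 to 595 in M layers and 37.5 to 54.9 in P layers.

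Of 27 tested genes of the extracellular matrix and its receptors 3 rose in M layers and none fell, and the list's median was 0.03, near the 0.06 of all genes. ITGA8, an integrin subunit that binds matrix proteins, had 90.1, 74.1 and 96.9 in M layers, against 11.7, 2.33 and 16.8 in P layers. The P values lie around the median signal of an array, so the gene was near background there and well above it in M layers. The difference was 2.01 ± 0.20 (adjusted p 3.14e-07, 0.000758 without the block). Its size depends on the pseudocount at so low a level, with 3.27 at a pseudocount of 1 and 1.03 at 64. TLL1, a metalloprotease of the tolloid family that processes matrix precursors, had 119, 165 and 225 in M layers, against 65.1, 41.1 and 47.3 in P layers. The groups did not overlap, and the difference was 1.44 ± 0.23 (adjusted p 0.000874, 0.0101 without the block). SPON2, a secreted matrix protein of the spondin family, had 35.1, 230 and 82.2 in M layers, against 26.9, 18.7 and 11.04 in P layers. Here M layer 2 was far above the others and M layer 1 only just above P layer 1. The difference of 1.65 ± 0.31 (adjusted p 0.00677) lost its call without the block (0.3) and without M layer 2 (0.146), P layer 2 (0.104) or P layer 3 (0.0777).

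Of 25 tested adhesion molecules of the cadherin and contactin-associated families 2 fell in M layers and none rose, with a median of -0.03. Of the 25, 11 lay above 0 and 14 below, and at an unadjusted p under 0.05, 2 were higher and 4 lower. PCDH20, a protocadherin, had 41.5, 36.6 and 25.6 in M layers, against 110, 113 and 165 in P layers. Each P array lay above every M array. The difference was -1.51 ± 0.23 (adjusted p 0.000486, 0.0101 without the block), so PCDH20 was 2.86-fold higher in P layers. CNTNAP4, a contactin-associated protein of synapses, had 598, 867 and 484 in M layers, against 1314, 1620 and 1086 in P layers. The number 2 array was the highest in both layer types, and the pairs gave -1.11, -0.89 and -1.14. The difference was -1.05 ± 0.17 (adjusted p 0.00147, 0.0313 without the block). A second, dim probe set of CNTNAP4 gave -0.03, and with the mean over both the difference was -0.54 and not called (adjusted p 0.252). ST8SIA4, the enzyme that adds polysialic acid to the adhesion molecule NCAM, had 63.5, 36.4 and 81.6 in M layers and 149, 124 and 149 in P layers. The difference was -1.08 ± 0.22 (adjusted p 0.0155). The call was lost without the block (0.506) and when any of the arrays but P layer 3 was left out of the 6 layer arrays (0.0755 to 0.196).

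BHLHE22, a basic helix-loop-helix factor of neuronal identity, had the largest difference toward P layers of the named genes. It had 100, 118 and 44.8 in M layers, against 535, 868 and 437 in P layers. The lowest P array lay far above the highest M array, and the pairs gave -2.25, -2.72 and -2.90. The difference of -2.62 ± 0.21 (adjusted p 6.73e-09, 0.00379 without the block) was a signal 6.16-fold higher in P layers. EBF1, a factor best known from B cells that also acts in neurons, had 176, 116 and 191 in M layers, against 76.2, 52.1 and 68.4 in P layers. Both of its probe sets were called, at 1.10 ± 0.21 (adjusted p 0.00723) and 1.44 ± 0.24 (0.00164). For the brighter the p without the block was 0.192, and it lay at 0.0502 to 0.0804 without M layer 2, M layer 3, P layer 1 or P layer 3.

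PHLDA2, from an imprinted gene known for restraining growth of the placenta, had 42.1, 95.0 and 66.4 in M layers and 136, 306 and 162 in P layers. The groups did not overlap, and within each the number 2 array was the highest. The difference was -1.34 ± 0.19 (adjusted p 0.000192, 0.115 without the block). REC8, a cohesin subunit known from meiosis, had 24.5, 31.5 and 19.6 in M layers and 85.2, 107 and 64.2 in P layers, a difference of -1.29 ± 0.20 (adjusted p 0.000549, 0.0247 without the block). The calls of both genes were lost in the 3 fits that use the station, with p of 0.274 to 0.837 for PHLDA2 and 0.176 to 0.33 for REC8. FABP4, a fatty acid binding protein known from adipocytes and macrophages, had 0.863, 7.36 and 8.28 in M layers and 53.3, 116 and 47.5 in P layers. The M values lie below the median signal of an array, and the difference of -1.98 ± 0.23 (adjusted p 5.21e-06, 0.00736 without the block) understates a change from so low a level. MDFIC, which inhibits factors of the MyoD family, had 1.63, 18.3 and 8.23 in M layers and 32.6, 61.1 and 41.6 in P layers (-1.29 ± 0.22, adjusted p 0.00234, 0.0712 without the block, 0.0874 within station 5).

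Of 14 tested astrocyte genes 1 was called, higher in M layers, and at an unadjusted p under 0.05, 3 were higher and 1 lower. In all 12 of 14 lay above 0, with a median of 0.23. The summed signal of the list was 18772 to 19688 in M layers and 14990 to 17105 in P layers, without overlap. This was not particular to astrocyte genes. The sums of the potassium channel, axonal, dendrite and postsynaptic density, and ependymal lists did not overlap either, with M above P. GFAP, the intermediate filament of astrocytes, had 1697, 1260 and 1168 in M layers, against 757, 575 and 644 in P layers. All 3 M arrays lay above the P arrays, and the difference was 1.03 ± 0.17, or 2.05-fold (adjusted p 0.00164). The call was lost without the block (0.0674). A second, dimmer probe set of GFAP gave -0.06, and with the mean over both the difference was 0.49 (adjusted p 0.307). Within station 5 the difference was 0.93 (adjusted p 0.628).

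FGFR3, a growth factor receptor of astrocytes, had 1374, 1618 and 1434 in M layers and 970, 985 and 925 in P layers. The groups did not overlap, but the difference of 0.61 ± 0.16 was not called (adjusted p 0.136). With the arrays scaled to one trimmed mean it was 0.53 (0.038), and after quantile normalization 0.48 and not called (0.0629). A second, dim probe set of FGFR3 gave -0.19, and with the mean over both the difference was 0.21 (adjusted p 0.898). The glutamate transporter SLC1A2 had 2246, 2125 and 2147 in M layers and 1491, 2128 and 1611 in P layers, and P layer 2 reached the M arrays (0.33 ± 0.19, adjusted p 0.794). Glutamine synthetase, GLUL, had 7024, 7187 and 6660 in M layers and 6449, 6511 and 5803 in P layers, without overlap (0.15 ± 0.13, adjusted p 0.916). AGT, angiotensinogen, which astrocytes make, pointed the other way, with 200, 124 and 68.1 in M layers and 294, 157 and 202 in P layers (-0.73 ± 0.21, adjusted p 0.186).

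None of 8 oligodendrocyte and myelin genes was called by limma with the block, without it, or at an unadjusted p under 0.05. Their median was -0.14, and 7 of 8 lay below 0. Their summed signal was 13354 to 14359 in M layers and 13369 to 15084 in P layers. The myelin protein MBP had a difference of -0.10 ± 0.12 and the myelin enzyme CNP, at 4016, 5028 and 4958 in M layers and 4228, 4664 and 3801 in P layers, one of 0.14 ± 0.13. Of 5 genes of oligodendrocyte precursors none was called and 1 was higher at an unadjusted p under 0.05. This was OLIG2, a lineage factor with 82.8, 97.3 and 76.2 in M layers and 55.2, 52.5 and 52.1 in P layers (0.55 ± 0.21, adjusted p 0.48).

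None of 13 microglial genes was called, with 2 higher and 1 lower at an unadjusted p under 0.05 and a median of 0.17. The summed signal was 2528 to 2693 in M layers and 2443 to 3286 in P layers. CD74, the invariant chain of antigen presentation, had 29.7, 28.2 and 21.6 in M layers and 2.13, 2.75 and 13.7 in P layers (0.97 ± 0.27, adjusted p 0.165). IRF8, a myeloid transcription factor, had 1209, 1017 and 956 in M layers and 1396, 1840 and 1204 in P layers (-0.46 ± 0.16, adjusted p 0.361). A second, dim probe set of IRF8 gave 0.37, and with the mean over both the difference was -0.05 (adjusted p 0.986). None of 12 endothelial and mural genes was called or passed an unadjusted p under 0.05, and their median was 0.01. Neither did any of 4 meningeal, 3 ependymal and 2 blood genes. HBB, beta globin, had 13.1, 32.2 and 5.90 in M layers and 11.2, 25.7 and 32.4 in P layers, near background.

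**Figure D3:**
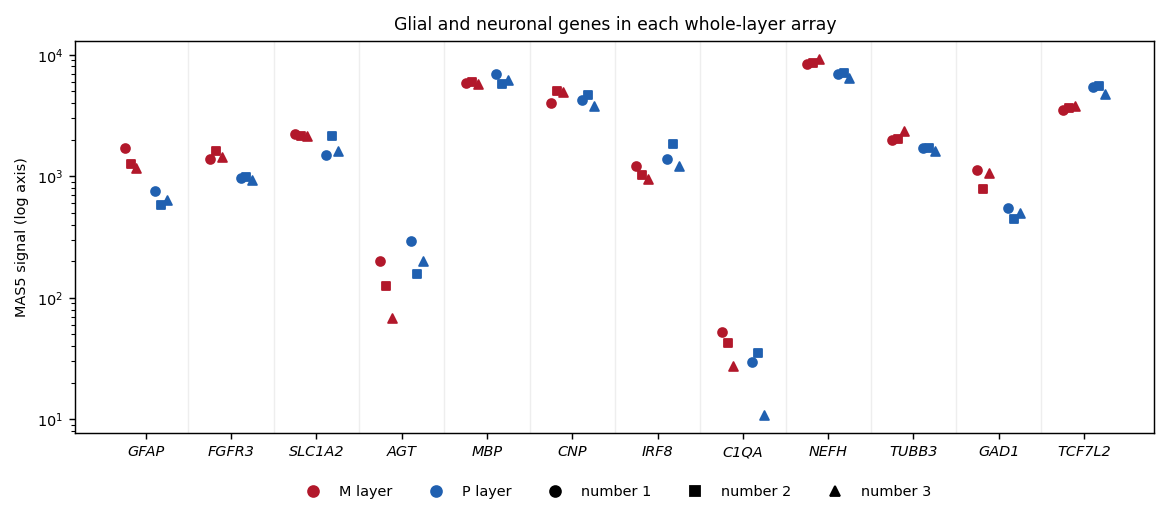
MAS5 signal (log axis) of 12 glial and neuronal genes in each whole-layer array, M layers left of P layers for each gene, symbols by title number. All M arrays lie above all P arrays for GFAP, FGFR3, NEFH, TUBB3 and GAD1 and below them for TCF7L2 (3489 to 3811 in M layers, 4730 to 5547 in P layers), and of the 12 only GFAP is called.

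General neuronal genes were close between the layers. None of 13 tested was called, 2 were higher at an unadjusted p under 0.05, and the median was 0.03. Their summed signal was 21821 to 28773 in M layers and 23610 to 29835 in P layers. The synaptic vesicle calcium sensor SYT1 had 5456, 6475 and 6416 in M layers and 6424, 6863 and 5979 in P layers. TUBB3, the neuronal tubulin, had 1984, 2029 and 2337 in M layers and 1705, 1699 and 1618 in P layers (0.33 ± 0.14, adjusted p 0.571).

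Of 16 axonal genes none was called, 1 was higher at an unadjusted p under 0.05, and the median was 0.05. That gene was NEFH, the heavy neurofilament that is abundant in large-calibre axons, with 8368, 8559 and 9300 in M layers and 6893, 7013 and 6411 in P layers. All M arrays lay above all P arrays, with pairs at 0.28, 0.29 and 0.54. The difference was 0.37 ± 0.11, or 1.29-fold, and was not called (adjusted p 0.233). After quantile normalization it was 0.34 and called (0.00235), and after scaling to one trimmed mean 0.28 and not called (0.18).

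Of 18 genes of dendrites and the postsynaptic density 1 rose in M layers, with a median of 0.06. CHN1, chimaerin, a neuronal protein that switches off the GTPase Rac, had 3884, 4590 and 5091 in M layers, against 2895, 2880 and 2630 in P layers. The groups did not overlap, and the difference was 0.68 ± 0.13, or 1.60-fold (adjusted p 0.0103, 0.0313 without the block). It was not called without M layer 2 (0.172), M layer 3 (0.152), P layer 1 (0.0599) or P layer 3 (0.0916), nor within station 5 (0.179). KALRN, an exchange factor of dendritic spines, had 3498, 3752 and 4027 in M layers and 2971, 2677 and 3154 in P layers (0.36 ± 0.13, adjusted p 0.447). Of 15 presynaptic genes none was called, with 2 higher and 1 lower at an unadjusted p under 0.05 and a median of -0.05. The adhesion molecule NRXN3 had 436, 408 and 386 in M layers and 301, 297 and 254 in P layers (0.51 ± 0.19, adjusted p 0.426). The vesicle GTPase RAB3A had 204, 157 and 120 in M layers and 220, 227 and 225 in P layers (-0.47 ± 0.20, adjusted p 0.574).

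Inhibitory interneuron genes numbered 8, of which none was called and 2 were higher at an unadjusted p under 0.05. Of the 8, 4 lay above 0 and 4 below, with a median of 0.18. GAD1, which makes GABA, had 1115, 788 and 1057 in M layers and 543, 449 and 499 in P layers. The groups did not overlap and the pairs gave 1.02, 0.79 and 1.06. The difference of 0.96 ± 0.23 missed the threshold (adjusted p 0.0607, 0.432 without the block) and passed it after quantile normalization (0.86, adjusted p 0.0293) and after scaling to one trimmed mean (0.87, 0.029). A dim second probe set of GAD1 gave -0.25, and with the mean over both the difference was 0.35 (adjusted p 0.769). GAD2, the other enzyme that makes GABA, was dim and level on its brighter probe set, with 25.3, 27.0 and 25.2 in M layers and 33.4, 28.1 and 21.3 in P layers. Its dimmer probe set gave -0.72 ± 0.24 and was not called (adjusted p 0.332). The calcium-binding protein PVALB had 4970, 4541 and 1726 in M layers and 4214, 3917 and 3163 in P layers, with M layer 3 the lowest of all.

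Of 6 tested relay neuron genes none was called, and 2 were lower in M layers at an unadjusted p under 0.05. As a list they were level, with 3 above 0, 3 below and a median of -0.02. RORA, a nuclear receptor of the list, lay above 0 on both tested probe sets, at 0.34 and 0.54, and was not called. TCF7L2, whose levels are given above, differed by -0.51 ± 0.12 (adjusted p 0.0738, 0.114 without the block). All 6 of its probe sets lay below 0, at -0.10 to -0.59. The difference was called after quantile normalization (-0.50, adjusted p 0.000447), after scaling to one trimmed mean (-0.60, 0.00156) and with a pseudocount of 64 (-0.51, 0.0453). FOXP2, a forkhead factor, had 1.44, 4.36 and 1.19 in M layers and 15.7, 38.3 and 18.2 in P layers (-1.09 ± 0.26, adjusted p 0.0738). These values are near background, and a second probe set as dim gave 0.18. The first was called after quantile normalization (-1.12, adjusted p 0.0375), after scaling to one trimmed mean (-1.18, 0.0336) and with a pseudocount of 1 (-2.92, 0.0136). It was not called with a pseudocount of 64 (-0.40, 0.277), without the block (0.421) or with the station as block (0.789). Over probe set means FOXP2 differed by -0.45 and was not called (0.641). Its size and its call therefore depend on the pseudocount.

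Receptors for fast transmitters were not called in any of 4 glutamate and 8 GABA and glycine receptor genes tested, nor were 19 modulatory receptors. At an unadjusted p under 0.05, 1 glutamate receptor was higher and 1 lower, 1 GABA or glycine receptor was higher and 1 lower, and 3 modulatory receptors were lower. The kainate receptor GRIK1 had 441, 477 and 647 in M layers and 379, 355 and 376 in P layers (0.46 ± 0.18, adjusted p 0.53). The GABA receptor subunit GABRB1 had 754, 574 and 733 in M layers and 1017, 956 and 824 in P layers (-0.44 ± 0.17, adjusted p 0.514). After quantile normalization it was -0.54 and called (0.0384), and a second probe set gave -0.77 (adjusted p 0.0892). The serotonin-gated channel HTR3A, in none of these lists, was called, with 11.1, 4.50 and 22.7 in M layers and 33.9, 54.9 and 49.2 in P layers. Its difference was -1.14 ± 0.22 (adjusted p 0.00935), with 0.0873 without the block, 0.244 without M layer 2 and 0.117 without P layer 2.

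Of 8 neuropeptide genes 1 fell in M layers, with a median of -0.03. CARTPT, the precursor of the CART peptide, had 15.1, 141 and 26.2 in M layers and 123, 224 and 158 in P layers. The groups overlapped, because M layer 2 lay above P layer 1, and the number 2 array was the highest in both. The difference was -1.61 ± 0.32 (adjusted p 0.0103). It was not called without the block (0.3) or without M layer 1 (0.166), M layer 3 (0.132), P layer 1 (0.0609) or P layer 3 (0.0751). INHBA, a subunit of the growth factor activin, showed the same form, with 162, 555 and 354 in M layers and 521, 964 and 569 in P layers. Its difference of -1.01 ± 0.21 (adjusted p 0.0155) had a p of 0.529 without the block and lost its call without M layer 1 (0.234), M layer 3 (0.0557), P layer 1 (0.252) or P layer 2 (0.0907). None of 10 immediate early and heat shock genes was called, and 2 were lower at an unadjusted p under 0.05, among them FOS, a marker of recent activity, with 24.2, 69.8 and 73.7 in M layers and 68.1, 119 and 86.7 in P layers.

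**Figure D4:**
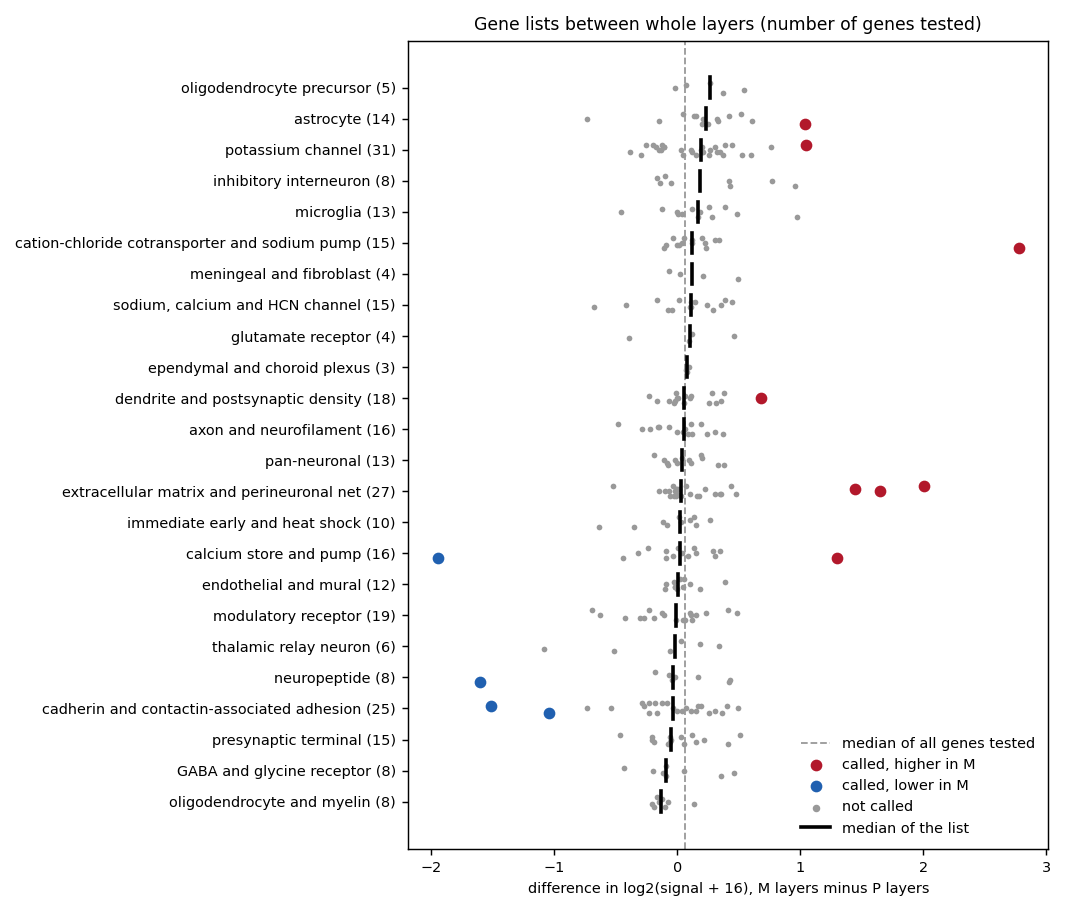
Difference between M and P layers on the log2(signal + 16) scale for the tested genes of each list, M minus P, with the number tested beside each name; red and blue points are called genes, black bars are list medians and the dashed line is the median of all 9349 genes (0.06). List medians lie between -0.14 (oligodendrocyte and myelin) and 0.26 (oligodendrocyte precursor), and called genes such as SLC12A1 at 2.78 and STIMATE at -1.95 lie far from the other genes of their lists.

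The remaining called genes were mostly dim. Higher in M layers were SMARCD1, CEP126, PBXIP1, CGNL1, KDELR2 and STX12, by 0.83 to 1.25. PBXIP1, which binds the homeodomain factor PBX, had 319, 429 and 430 in M layers and 151, 212 and 189 in P layers (1.03 ± 0.20, adjusted p 0.00935, 0.0335 without the block). CGNL1, a protein of cell junctions, had 94.8, 142 and 155 in M layers and 66.1, 43.7 and 57.9 in P layers (1.02 ± 0.21, adjusted p 0.0148, 0.0413 without the block). Both lost their call without M layer 2 (0.159 for PBXIP1 and 0.232 for CGNL1), without M layer 3 (0.0857 and 0.181) and without P layer 3 (0.0556 and 0.0845), PBXIP1 also without P layer 1 (0.187) and CGNL1 without P layer 2 (0.14). Lower in M layers were TENT5A, ITIH4, TSPAN33, MYB, CRYM, SHC4, ST14 and CNTROB, by -0.90 to -1.57. None of these 8, nor SMARCD1, CEP126, KDELR2 or STX12, was called without the block or kept its call with each array left out, and the highest adjusted p with 1 array left out ran from 0.116 for TENT5A to 0.456 for CNTROB. Dimmer probe sets gave -0.01 for ITIH4, 0.11 for SHC4, and -0.07 and 0.25 for ST14. Over probe set means ITIH4 (-0.56), SHC4 (-0.46) and ST14 (-0.27) were not called, nor were KDELR2, STX12 and PBXIP1.

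Different probe sets of a gene did not always give the same answer. Of the 89 called probe sets, 13 belonged to a gene whose brighter probe set spoke for it above, and of 10 such genes only EBF1 had its brightest probe set called too. LIN7A, a scaffold protein of the postsynaptic membrane, was the case with most probe sets. Its brightest had 7162, 8138 and 8483 in M layers and 7766, 8103 and 7878 in P layers, a difference of -0.00 ± 0.11. The next had 2680, 2166 and 2017 in M layers, against 873, 1199 and 753 in P layers, and was called at 1.28 ± 0.17 (adjusted p 7.56e-05, 0.00662 without the block). In all 3 of 6 were called, at 1.15 to 1.42, the other 2 dim ones lay at 0.57 and 0.64, and the mean over all 6 was 0.85 (adjusted p 0.0128).

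HINT1, a nucleotide hydrolase expressed in most cells, was a like case. Its brightest probe set had 845, 874 and 938 in M layers and 944, 877 and 730 in P layers (0.06 ± 0.17), and this difference turned below 0 after scaling to one trimmed mean (-0.02). The next had 277, 925 and 487 in M layers, against 138, 108 and 109 in P layers (1.95 ± 0.32, adjusted p 0.00106, 0.0309 without the block), and the dimmest had 141, 527 and 229 in M layers, against 53.9, 30.6 and 62.1 in P layers (2.12 ± 0.32, adjusted p 0.000486, 0.0179 without the block). In both the M arrays lay above the P arrays, with M layer 2 the highest. The mean over the 3 was 1.38 (adjusted p 0.00175). Which transcripts the probe sets of these genes read was not analysed here.

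**Figure D5:**
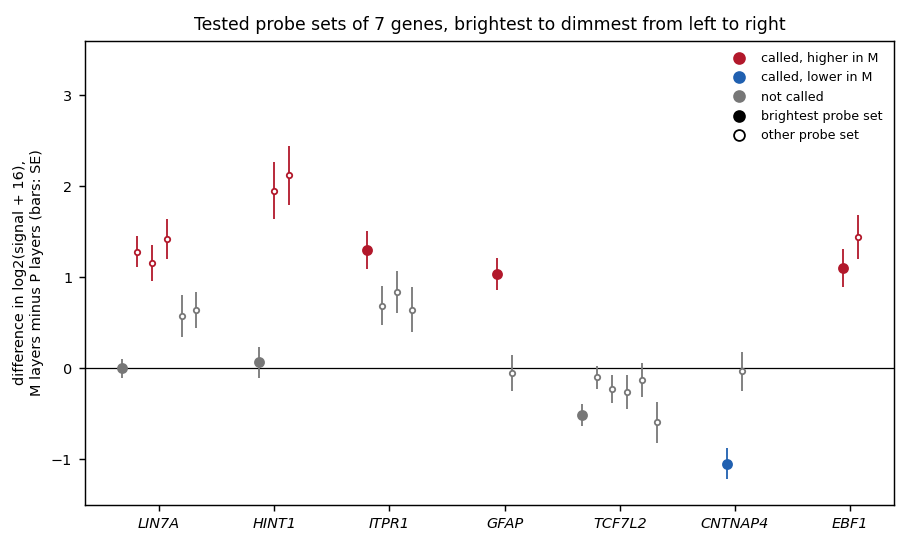
Difference between M and P layers on the log2(signal + 16) scale, M minus P, for each tested probe set of 7 genes from the brightest on the left to the dimmest on the right, with bars for the model's standard error (3 arrays in each group); red and blue are called probe sets and filled points the brightest. The brightest probe sets of LIN7A (-0.00) and HINT1 (0.06) lie near 0 while others of the same genes lie at 1.15 to 1.42 and at 1.95 and 2.12.

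The difference between layers was also set beside that between captured neurons of the same layer types, M neurons minus P neurons. In the neurons 0.877% of the 9349 genes were called. Of the 35 genes called between layers, 34 differed in the same direction in neurons and 21 were called there too. The share of all 9349 genes with the same direction in both was not counted here. SLC12A1 differed by 3.01 in neurons and 2.78 in layers, BHLHE22 by -3.00 and -2.62, ITGA8 by 2.25 and 2.01, and STIMATE by -2.22 and -1.95. GFAP had 1036, 522 and 603 in M neurons and 502, 450 and 420 in P neurons, a difference of 0.58 that was not called there (adjusted p 0.154).

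The test of the difference between the 2 contrasts, an interaction of layer type with capture, called 0 probe sets by limma with the block and 0 without it, with 970 and 742 at an unadjusted p under 0.05. The smallest adjusted p was 0.0785, for SMARCD1, a subunit of a chromatin remodelling complex. SMARCD1 had 41.6, 38.3 and 55.4 in M layers and 5.71, 16.7 and 7.19 in P layers, a difference of 1.25 ± 0.24 (adjusted p 0.00864, 0.111 without the block), while in neurons it differed by -0.73. The layer call was lost without M layer 1 (0.121) or P layer 3 (0.161). PCDH20 differed by -1.51 in layers and -2.92 in neurons, with an adjusted p of 0.758 for the interaction. No called difference between whole layers was shown to be particular to them.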

How the data were processed

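The rhesus arrays' deposited values are a linear intensity per probe set, made with MAS5 according to the submitters' processing notes (version not given in the sources used here). On the array were 52865 probe sets, with 99 controls. Of the other 52766, 24956 had 1 gene symbol in the platform annotation, 361 several and 27449 none, and genes were named only from the first. The annotation can be old.

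The signal was used as deposited. R 4.3.3 and limma 3.58.1 fitted log2(signal + 16), a scale that understates changes of dim probe sets, for 26383 probe sets whose mean signal reached the median (lowest 12.6). The fit took 12 rhesus arrays, 4 group means, the title number as a block and an intensity trend (6 residual and 21.9 prior degrees of freedom). The two-sided tests had Benjamini-Hochberg adjustment over all probe sets. The script was tested on simulated data. With the block it recovered 0% of added differences of 0.5 and 40% of those of 1. It recovered 36% of those of -1 and 96% of those of 2. A difference of 1 or less that was not called is therefore not shown to be absent.

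The numbers in the titles gave the pairs. Deviations of same-numbered layer arrays from their group means correlated at 0.145 to 0.259 in every pair, and all 12 arrays had their highest mean correlation with arrays of their own number. P-values measure the spread between these samples.

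A gene is spoken for by its brightest tested probe set, symbols starting with LOC left out. Named genes are up to 20 called genes in each direction with the largest difference and no overlap between the 3 and 3 arrays, up to 3 genes of smallest p and every called gene of 26 lists, the 5 smallest interaction p and a fixed panel. Genes with a called probe set that is not the brightest may be named as a disagreement. INHBA, outside this rule, was chosen after its values were seen. Of the panel AQP4, NEFM, NEFL, CALB1, SLC17A6, SNAP25 and SYT2 were not analysed here and CAMK2A fell below the filter. The members and lists were chosen with earlier results of these data known. Alternatives covered the block, samples, pseudocount, filter, scaling, trend, station and each array left out.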

Additional observations from a re-analysis of the deposited data

How the results depend on the processing

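Against 89 probe sets called between M and P layers, the count was 42 with no replicate block, 195 on the 6 layer arrays alone with the block and 32 without it, 37 with no signal filter, 307 after quantile normalization, 264 with arrays scaled to one trimmed mean, 14 with the station as block in place of the number and 26 with both. Within station 5, an alternative chosen after seeing the data, it was 28. Leaving out M layer 1 and M neuron 3 together, the arrays with the lowest correlation with their groups and also chosen after seeing the data, gave 71. Leaving out 1 array at a time gave 57 (without P layer 1) to 147 (without M neuron 2), and 57 to 73 when the array left out was a layer array. The interaction count was 0, and 0 to 1 with 1 array left out, with 1 call without M neuron 3, M layer 2 or P layer 2.

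All 35 named genes kept their direction under all 27 alternatives, and of these 945 values 274 missed the threshold. Many alternatives could not change a direction. Dropping the block, fitting the layer arrays alone, changing the filter or trend, or leaving out a neuron array leaves the size of the difference as it was. Over probe set means 38 genes were called, 27 of the 35 among them. BHLHE22, ITGA8, SLC12A1, STIMATE and TLL1 were called under every alternative. The difference of LIN7A, near 0, turned to 0.10 with the station as block, to 0.0936 with the replicate block and station, to 0.0939 within station 5, to 0.0632 with 2 arrays left out, to -0.0488 to 0.0687 with 1 left out and to 0.85 over probe set means. That of HINT1 turned to -0.0471 after quantile normalization, to -0.0187 after trimmed-mean scaling and to -0.14 without P layer 3, with 0.21 as the highest value with 1 array left out. The causes were not tested. Dim probe sets and 3 arrays in each group limit the precision.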

Other observations

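Among the 38 called probe sets with no gene symbol were differences larger than that of any named gene. MmugDNA.25280.1.S1_at had 204, 162 and 83.3 in M layers, against 1241, 1608 and 1003 in P layers (-3.02), and MmugDNA.38317.1.S1_at had 88.3, 91.3 and 72.6 in M layers, against 733, 952 and 676 in P layers (-2.99). In the other direction MmugDNA.21448.1.S1_at had 406, 264 and 277 in M layers, against 34.0, 24.8 and 25.97 in P layers (2.89). MmugDNA.35634.1.S1_at had 80.5, 38.4 and 150 in M layers, against 12.3, 2.31 and 8.52 in P layers (2.03), less than the 2.78 of SLC12A1. In all 4 the M and P arrays did not overlap.

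Among called probe sets that were not the brightest of their gene, SDC2, a heparan sulfate proteoglycan of the cell surface, had its 3 probe sets on the same side. The called one had 283, 319 and 286 in M layers, against 149, 180 and 152 in P layers (0.82, adjusted p 0.0477), and the brightest had 1248, 1624 and 1451 in M layers and 944, 1036 and 891 in P layers (0.58, adjusted p 0.28). For ATP2A2, the calcium pump of the endoplasmic reticulum, the brightest probe set was level, with 5115, 6108 and 6696 in M layers and 5916, 6284 and 5590 in P layers, while a dimmer one had 552, 570 and 248 in M layers, against 124, 242 and 174 in P layers (1.22, adjusted p 0.0155).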
